A study of Mus musculus with 2 samples.

Results

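Hair follicle matrix and inner sheath cells were examined in a single-cell RNA library of control mouse skin. A cell was chosen by its counts. It was kept when Krt25, Krt27, Krt28, Krt71, Krt73, Krt35, Msx2 and Hoxc13 together made up at least 0.2% of its unique molecular identifiers (UMIs, 1 per captured RNA molecule). It also had to hold 0 UMIs of Pdgfra, Ptprc and Pecam1, which mark fibroblasts, leukocytes and endothelium. The rule lists Krt85 as well, which was not analysed here. This gate selected 64 of the 11399 control cells that had 200 to 6000 genes and at most 10% mitochondrial UMIs, a share of 0.561% (95% Clopper-Pearson interval 0.433 to 0.716). Both libraries together held 19578 such cells. Because the gate genes chose the cells, their levels are given as a description and were not tested.

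The study placed dorsal skin of female C57BL/6J mice, 7 weeks old, into 1 library per condition. In both conditions Nair depilatory cream had removed the hair 24 hours before the first application, and skin was collected on day 10 of daily treatment. Ctrl mice received 100% ethanol on the skin. Mice of the group labelled AD received 4.5 nmol of MC903 (calcipotriol, a vitamin D analog applied to model atopic dermatitis) in ethanol at each application. The Ctrl library held 125184653 UMIs over 12598 barcodes and the AD library 76106062 UMIs over 8778 barcodes. The number of mice behind a library is not given in the sources used here, so no difference between conditions or between cell classes was tested. All intervals below are 95% intervals for counting error only, exact Poisson for levels and Clopper-Pearson for shares.

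The hair shaft and its sheath are built from matrix keratinocytes, which divide around the dermal papilla at the base of the follicle and then move upward into concentric layers. The inner root sheath moulds the growing shaft. It contains the type I keratins Krt25, Krt27 and Krt28, the type II keratins Krt71 and Krt73, and trichohyalin (Tchh), which hardens it. Krt35 is an early keratin of the shaft, while most other shaft keratins and the keratin-associated proteins come later. Msx2, Hoxc13, Lef1, Dlx3 and Foxn1 are transcription factors of the matrix and the forming shaft.

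The 5 inner sheath keratins of the gate come from a pair of gene clusters. Krt25 (chr11:99315516-99322951), Krt27 (chr11:99345565-99351104) and Krt28 (chr11:99364872-99374903) lie next to each other with Krt26, and Krt71 (chr15:101733949-101743109) lies close to Krt73 (chr15:101793308-101802346), all on the minus strand of GRCm38 in GENCODE vM21. The 110 bases before the RefSeq start of each gene (GRCm38.p6) are shown because these 5 keratins form the inner sheath group of the gate. Capitals mark the letters TATAAA.
Krt25 (chr11:99322952-99323061): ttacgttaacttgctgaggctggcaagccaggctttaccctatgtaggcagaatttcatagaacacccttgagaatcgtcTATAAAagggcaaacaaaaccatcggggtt
Krt27 (chr11:99351119-99351228): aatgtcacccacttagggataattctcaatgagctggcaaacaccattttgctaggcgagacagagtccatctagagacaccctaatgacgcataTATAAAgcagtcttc
Krt28 (chr11:99374904-99375013): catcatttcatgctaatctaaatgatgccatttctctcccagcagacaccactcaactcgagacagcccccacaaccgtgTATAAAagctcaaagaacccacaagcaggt
Krt71 (chr15:101743098-101743207): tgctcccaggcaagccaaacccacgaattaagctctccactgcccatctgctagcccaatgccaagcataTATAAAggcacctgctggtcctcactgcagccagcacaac
Krt73 (chr15:101802361-101802470): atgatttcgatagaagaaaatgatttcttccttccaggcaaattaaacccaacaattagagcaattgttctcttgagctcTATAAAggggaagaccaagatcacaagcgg
Read in the direction of transcription, all 5 hold TATAAA in the last 40 bases before the start, beginning 30 bases before it in Krt25, Krt28 and Krt73, 40 in Krt71 and 15 in Krt27. The same letters stand there in 2.31% of the 32851 mouse promoters of the RefSeq table. Over the whole 250 bases before the start and on both strands, AGATAA, a form of the Gata factor motif, was found in 4 of the 5 (9.99% of all promoters). TAATTA, a homeodomain core that reads the same on both strands, was also found in 4 (4.84% of all promoters). CTTTGA, the core of the Lef and Tcf motif, was found in 1, Krt28 (13.8% of all promoters). These are matches of letters, not measured binding.

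The 64 gated cells were among the deeper cells of the library. They held 842830 UMIs in all, from 521 to 29658 per cell with a median of 14084, and a median of 3904.5 genes. The median over all kept Ctrl cells was 7813 UMIs. UMIs of the gate genes ranged from 2 to 495 per cell, with a median of 40.5. In 5 cells fewer than 5 gate UMIs carried the call, and 4 of these had fewer than 1000 UMIs in total. None of the 64 reached the 0.5% share of Krt5 plus Krt14 that defined the 403 other Ctrl keratinocytes used for comparison, which had a median of 10279 UMIs. Another 7 cells reached the gate share but carried a Pdgfra, Ptprc or Pecam1 UMI. Scrublet called 395 Ctrl cells doublets (3.47%), and 0 of them were gated. The libraries shared 35 cell barcodes, and 0 of these were gated.

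The threshold cut through a continuous range of cells. The lowest gated cell held 38 gate UMIs among 18879 (0.201%), and the highest cell below the threshold stood at 0.197%. There were 22 cells from 0.2% to 0.25% and 34 from 0.15% to 0.2%. Further down, 111 cells lay from 0.1% to 0.15% and 263 from 0.05% to 0.1%. Levels are on the CPM scale, in which a class's summed UMIs are set to a total of 1000000. Each RNA molecule is counted once at its 3′ end, so levels are not divided by gene length. The bands were cut by the sum of the gate genes, so its fall from band to band was fixed by the rule. Single gate genes followed that fall to different degrees. Krt71 stood at 477 CPM from 0.2% to 0.25%, at 216 from 0.15% to 0.2% and at 33.2 from 0.1% to 0.15%. Krt28 changed less over the same bands, with 495, 450 and 370 CPM, and Krt27 stood at 80.0, 97.6 and 103 CPM. The transcription factors Lef1 (249, 356 and 237 CPM) and Cux1 (876, 1375 and 1108 CPM) stood highest in the middle band. Krt14, the keratin of basal and outer sheath cells, stood at 12.3, 82.6 and 214 CPM in these bands and at 257 CPM from 0.05% to 0.1%. Thus the bands just below the gate held the same transcription factors and more Krt14 in their summed UMIs. Whether the same cells carried both was not tested.

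**Figure D1:**
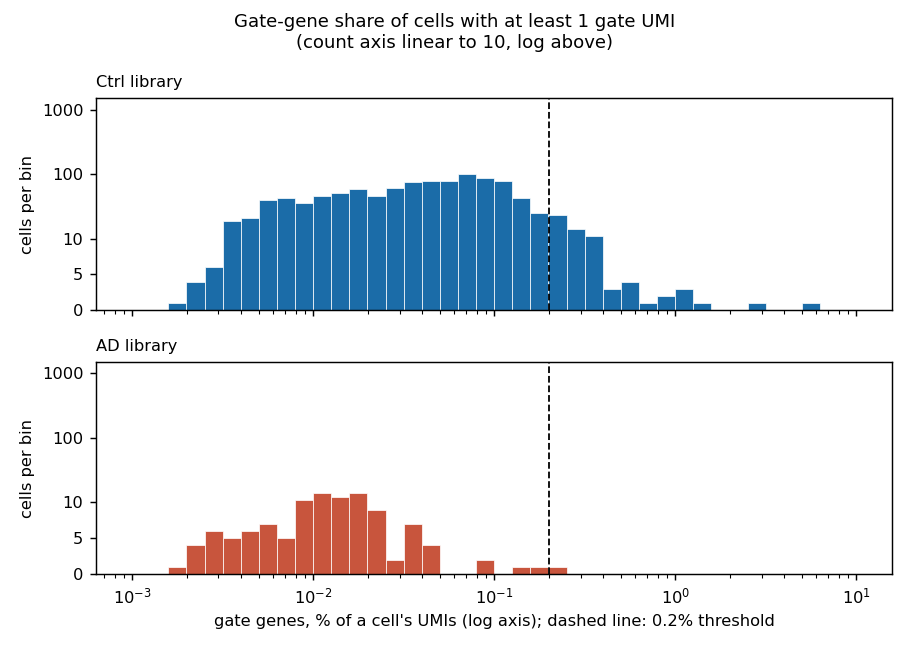
Number of cells (vertical axis, linear to 10 and logarithmic above) by the share of gate genes among a cell's UMIs (horizontal axis, log scale) in the Ctrl and AD libraries, for cells with 0 UMIs of Pdgfra, Ptprc and Pecam1 and at least 1 gate UMI. The Ctrl cells run without a gap across the dashed threshold at 0.2%, with 64 cells above it, whereas 1 AD cell lies above it.

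How much of each gene's RNA the gate caught differed widely. Of all UMIs in kept Ctrl cells, the gated cells held 75.8% for Krt73 and 73.3% for Krt71, but 37.5% for Krt25, 15.8% for Krt27 and 13.6% for Krt28. The share was 55.1% for Krt35, 10.5% for Hoxc13 and 6.83% for Msx2. Cells between 0.1% and 0.2% held a further 22.2% of Krt25, 23.9% of Krt28 and 9.71% of Krt71. The other keratinocytes held 0.202% of Krt28 and 0.694% of Krt71. Of Lef1, which fibroblasts and T cells also express, 62.4% lay in other cells that carried a Pdgfra, Ptprc or Pecam1 UMI.

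**Figure D2:**
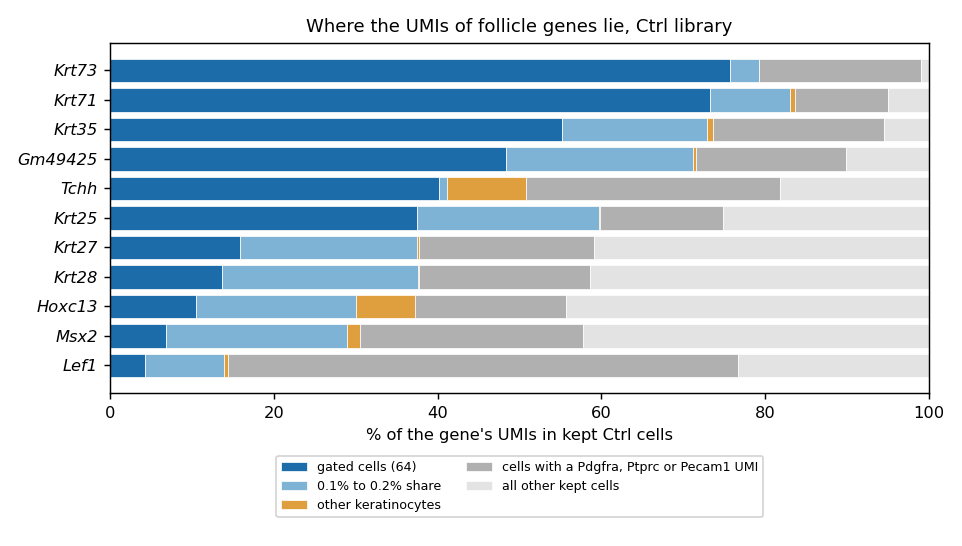
Percent of the UMIs of each gene in kept Ctrl cells (horizontal axis) that lay in the gated cells, in cells with a gate share from 0.1% to 0.2%, in other keratinocytes, in cells with a Pdgfra, Ptprc or Pecam1 UMI and in all remaining cells. Krt73 and Krt71 lay mostly inside the gate (75.8% and 73.3%), while Krt27 and Krt28 lay mostly outside it (15.8% and 13.6% inside).

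The gate took in cells led by different gene groups. By which group held most of a cell's gate UMIs, 46 cells (71.9%, 59.2 to 82.4) were inner-sheath-led, 12 (18.8%, 10.1 to 30.5) were shaft-led on Krt35 alone and 5 (7.81%, 2.59 to 17.3) were led by Msx2 and Hoxc13. In 1 further cell the groups tied. Each of the markers given for these cells was found in 21 (Krt35) to 46 (Krt25) of the 64, which the gate makes likely, and Dlx3 and Cux1, which the gate did not use, were found in 54 and 59. The leading group held at least 90% of the gate UMIs in 40 cells, of which 39 were inner-sheath-led. It held under 60% in 12 cells, 5 of them shaft-led and 5 of them led by the transcription factors, so those last 2 classes are parts of a range.

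Krt71 and Krt35 were seldom found in the same gated cell. Both are gate genes and a cell could pass on either alone, so the rule itself shapes how often they met. A Krt71 UMI was present in 38 cells and a Krt35 UMI in 21, and 2 cells had both. Krt25 and Krt71 were found together in 35 cells, out of 46 with Krt25. Krt28 was the most widespread gate gene, present in 55 cells, and it was shared by 15 of the 21 cells with Krt35. Krt27 was found in 14 and Krt25 in 7 of these 21, and 20 of them held a UMI of at least 1 of the 5 sheath keratins. In inner-sheath-led cells the median was 9.39 UMIs per 10000 for Krt25, with a highest value of 193, 12.1 for Krt71 (highest 302) and 0 for Krt35 (highest 2.90). In shaft-led cells the median was 25.6 per 10000 for Krt35, from 8.02 to 82.8, and 0 for both Krt25 (highest 1.74) and Krt71, which had 0 UMIs in all 12. The classes were made from these same genes, so the medians describe the split and were not tested. Among 2102 Ctrl cells with a Ptprc UMI (median 4190 UMIs), which should lack these keratins, 1.33% held a Krt25 UMI. A Krt71 UMI was held by 1.14% of them and a Krt35 UMI by 0.571%. In the gated cells (median 14084 UMIs) the shares were 71.9%, 59.4% and 32.8% in the same order. The gate chose its cells by these keratins and by 0 Ptprc UMIs, and the gated cells were also deeper. The direction of this contrast was therefore fixed by the rule, and the contrast was not tested.

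**Figure D3:**
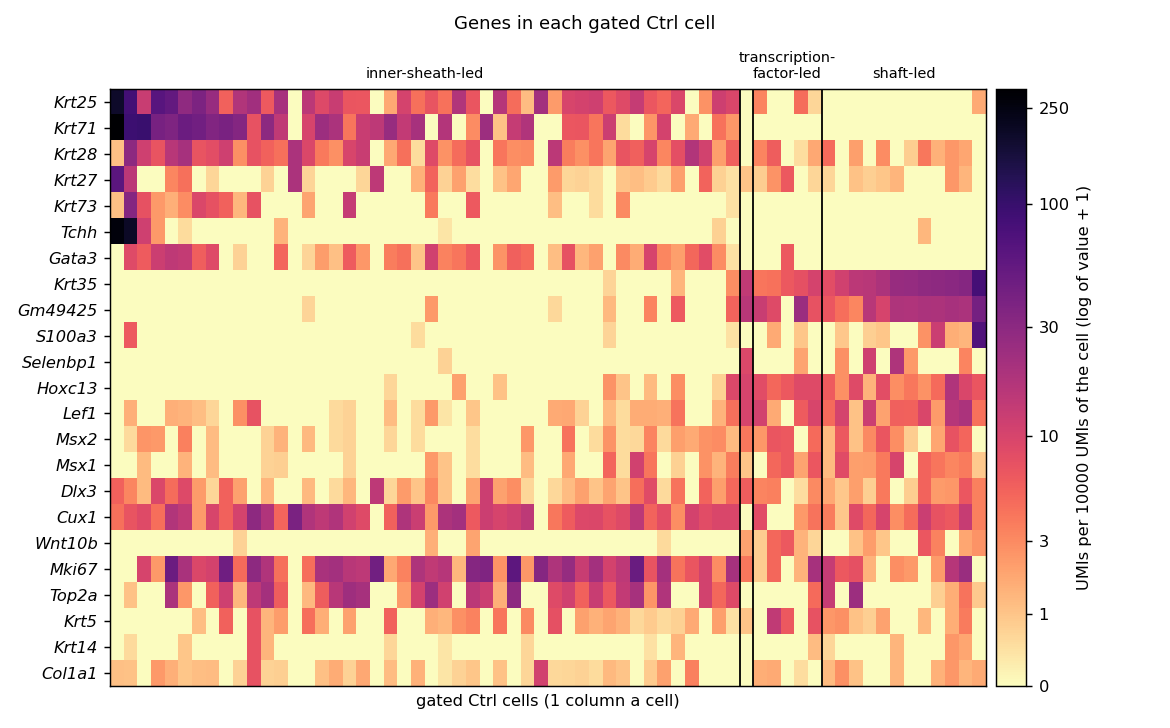
UMIs per 10000 UMIs of the cell (colour, log of the value plus 1) for 23 genes (rows) in each of the 64 gated Ctrl cells (columns), ordered by class and then by sheath keratin or Krt35 level. Krt25 was found in 42 and Krt71 in 38 of the 46 inner-sheath-led columns, and Krt35 and Gm49425 in all 12 shaft-led columns, while Dlx3, Cux1 and Mki67 appear across both.

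The levels of the gate genes, which the rule fixes to be high, were as follows. Krt71 stood at 1504 CPM (1423 to 1590) in the gated cells and 2.49 CPM in the other keratinocytes. Krt25 stood at 1189 CPM (1116 to 1265) against 0.831. Krt35 was at 587 against 1.25 CPM and Krt28 at 560 against 1.45 CPM. Krt27 (187 against 0.415 CPM) and Krt73 (178 against 0 CPM) were the scarcest of the sheath keratins. Both rested in large part on the 2 cells of highest gate share, without which Krt27 stood at 93.2 CPM and Krt73 at 108 CPM. Of the transcription factors, Hoxc13, which drives hair keratin genes, stood at 242 against 31.1 CPM and Msx2 at 160 against 6.65 CPM.

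Across the whole library, 8661 of 33904 genes reached a mean of 10 CPM over the gated cells and the other keratinocytes. With 10 CPM added to both levels, the gated cells were at least 2-fold higher for 444 genes (5.13%) and at least 2-fold lower for 916 (10.6%), around a median log2 ratio of 0.06. These genes come from the cells that the gate separated, so their counts describe the classes and were not tested.

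Outside the gate genes, the highest log2 ratio was that of Gm49425 (5.52), a protein-coding gene model between the hair keratin genes Krt83 and Krt84 at chr15:101515920-101517261. GENCODE tags this model as touched by an error of the reference genome. It stood at 476 CPM (430 to 525) in gated cells and 0.623 CPM in the other keratinocytes, and it was found in 24 gated cells and 2 of the others. In the shaft-led cells it ran from 3.25 to 41.8 UMIs per 10000 with a median of 18.0, and all 12 held it. In inner-sheath-led cells it was found in 7 of 46. It accompanied Krt35 in 20 of the 21 cells with that keratin, and 48.4% of its UMIs in the library lay in the gated cells.

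Lef1, Dlx3, Msx1 and Cux1, transcription factors of the matrix and sheath, were 4 of the 20 highest genes. Lef1, the nuclear partner of beta-catenin in Wnt signalling, stood at 291 CPM (255 to 329) in gated cells and 6.23 in the other keratinocytes. Dlx3, a homeodomain factor needed for shaft formation, stood at 243 CPM (211 to 279) against 6.85. Msx1 was at 178 against 5.81 CPM. Cux1, a homeodomain factor of the inner sheath lineage, was at 911 CPM (848 to 978) against 54.8 and was found in 59 of 64 gated cells. Of 19 listed matrix transcription factors, 18 reached the filter, and 11 of these were at least 2-fold higher. However, 8 of the 11 (Lef1, Foxn1, Dlx3, Dlx1, Dlx2, Dlx4, Msx1 and Sp6) were under 10 CPM in the other keratinocytes and passed through the gated cells alone, so they had to be high there to be counted. Of the 10 that reached 10 CPM on both sides, 3 were at least 2-fold higher (Cux1, Ovol1 and Trps1) and 0 lower, with a median log2 ratio of 0.63. Over all genes, 7421 reached 10 CPM on both sides, of which 4.30% were at least 2-fold higher and 5.58% lower, with a median of 0.10. Id3, an inhibitor of basic helix-loop-helix factors, was the second most abundant of the list at 649 against 377 CPM, and Gata3, a factor of the inner sheath, did not differ by 2-fold at 305 against 268 CPM. Hoxc12 had 0 UMIs in the gated cells.

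Cells across both classes carried Cux1 and Dlx3, but Lef1 and Gata3 were split between them. Lef1 had a median of 5.65 UMIs per 10000 in the shaft-led cells, from 1.08 to 19.1, and of 0.506 in the inner-sheath-led cells, from 0 to 7.28. All 12 shaft-led cells and 25 of 46 inner-sheath-led cells held it. Gata3 went the other way, with a median of 2.99 per 10000 and a highest value of 14.4 in inner-sheath-led cells, 37 of 46 of which held it. None of the 12 shaft-led cells held a Gata3 UMI, which allows a share of cells with a UMI of up to 26.5%. Across all gated cells, Gata3 was found in 31 of the 38 cells with Krt71 and 3 of the 21 with Krt35. In the other keratinocytes 75.2% of cells held Gata3.

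The classes differed in other genes as well. After Krt71 and Krt25, the genes most in excess in inner-sheath-led cells were Tchh, Gata3 (418 against 0 CPM), Creb5, a basic leucine zipper factor (317 against 0 CPM, in 31 cells), and Gm20186 (573 against 12.7 CPM). They were followed by Krt73, the gene ENSMUSG00000121069, the histone gene H2ac20 (186 against 0 CPM) and the replication helicase subunit Mcm6 (157 against 0 CPM). Tchh was found in only 8 of the 46 inner-sheath-led cells, and 2 of these held 610 of its 625 UMIs in the class. In shaft-led cells, Krt35 stood at 2707 CPM against 16.3 and Gm49425 at 1655 against 60.4. Also higher there were Kitl, the ligand for the Kit receptor of melanocytes (697 against 27.7 CPM, in 10 of 12 cells), Unc5b, a netrin receptor (425 against 19.6 CPM, in 12 of 12 cells), and Aldh1a3, which makes retinoic acid (387 against 6.53 CPM, in 7 of 12 cells). Gpnmb (266 against 0 CPM, in 7 of 12 cells), Selenbp1 (260 against 3.26, in 5 of 12) and Rora, a nuclear receptor (228 against 6.53, in 6 of 12), were also on the list. Dapl1 (285 against 6.53 CPM) had 37 of its 45 shaft-led UMIs in 1 cell, and Aldh1a3 had 35 of 61 in 1 cell. The calcium-binding shaft protein S100a3 stood at 780 against 24.5 CPM, but 81 of its 142 UMIs in gated cells came from 1 shaft-led cell. The classes were made from 1 library and from the gate genes, and their differences were not tested.

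**Figure D4:**
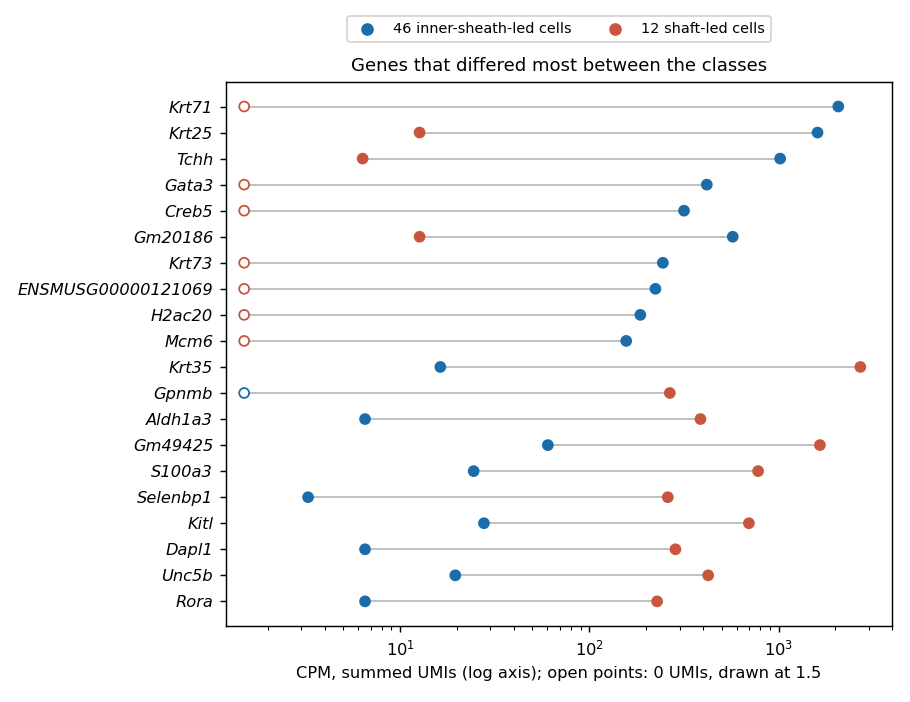
Level in CPM (horizontal axis, log scale, open points for 0 UMIs) of the 10 genes most in excess in the 46 inner-sheath-led cells and the 10 most in excess in the 12 shaft-led cells. Gata3 stood at 418 against 0 CPM and Gm49425 at 60.4 against 1655 CPM.

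Late products of the sheath and shaft were scarce. Tchh stood at 743 CPM in gated cells and 31.4 in the other keratinocytes, yet 610 of its 626 UMIs came from the 2 cells with the highest gate shares. The first of these held 235 Tchh, 268 Krt71 and 171 Krt25 UMIs among 8865 (gate share 5.58%), and the next 375 Tchh, 172 Krt71 and 157 Krt25 UMIs among 18636 (2.55%). Without this pair, Tchh stood at 19.6 CPM, below the other keratinocytes (log2 ratio -0.48). The first of the pair held 0 UMIs of Mki67 and Gata3. The sheath keratins Krt26, which lies between Krt25 and Krt27 on chromosome 11, and Krt72 had 0 UMIs in the gated cells, as had Tchhl1, Padi1 and Cdsn. Of 16 other listed sheath genes, 15 were in the count table and 6 reached the filter, 1 by the gated side alone (Padi3) and 1 by the other side alone. Of the 6, 3 were at least 2-fold higher (Tchh, the desmosomal gene Dsc1 at 58.1 against 18.7 CPM, and Padi3, which modifies trichohyalin, at 30.8 against 0.623 CPM) and 0 were lower. For comparison, 5.13% of all genes that reached the filter were higher and 10.6% lower. Padi3 also fell without the pair of cells above, to 15.9 CPM (log2 ratio 1.29, from 1.94).

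The other 14 listed shaft keratins gave 13.1 CPM together in gated cells and 11.2 in the other keratinocytes, and 0 reached the filter. Krt31, Krt33a, Krt33b, Krt34, Krt81 and Krt86 were among 10 of them with 0 UMIs, and Krt36 was the most abundant at 8.31 CPM (7 UMIs). Of 57 keratin-associated protein genes, 52 had 0 UMIs and 0 reached the filter. The most abundant, Krtap8-1, had 9 UMIs over 5 cells. Among 12 further shaft genes, 6 reached the filter, and 4 were at least 2-fold higher and 0 lower, 2 of the 4 having passed through the gated side alone. One of the 4 was Tchh, which was lower without the pair of cells above. Besides Tchh and S100a3 these were the metallothionein Mt4 (387 against 56.3 CPM) and Selenbp1 (66.4 against 3.11 CPM). Among all genes that reached the filter, 5.13% were higher and 10.6% lower. Mt4 was found in 29 cells and stood at 1071 CPM in shaft-led and 155 CPM in inner-sheath-led cells. The shaft-led cells, which were defined by Krt35, held 57.1 CPM of the other 14 shaft keratins together.

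Mki67 and Top2a were at least 2-fold higher in the gated cells. Mki67, the proliferation antigen, stood at 1296 CPM against 435, and Top2a, the topoisomerase of dividing cells, at 719 against 236. Of 16 genes of the G2/M phase, all of which reached the filter, 5 were at least 2-fold higher and 0 lower, with a median log2 ratio of 0.93. Of 18 S phase genes, also all tested, 10 were at least 2-fold higher and 0 lower, 9 of them among the 16 that reached 10 CPM on both sides (median 1.01), led in abundance by Pcna (406 against 197 CPM) and Dut (267 against 92.0 CPM). Over all 8661 genes that reached the filter, 5.13% were at least 2-fold higher and 10.6% lower. Of all genes that reached 10 CPM on both sides, 4.30% were higher and 5.58% lower. At least 1 UMI of Mki67 or Top2a was found in 92.2% of gated cells (82.7 to 97.4) and 50.4% of the other keratinocytes (45.4 to 55.4). After each cell was thinned to 1000 UMIs, the shares were 66.7% (53.3 to 78.3, 60 cells with 4 left out) and 22.1% (18.1 to 26.5, 394 cells with 9 left out). Histone genes stood among the 20 highest genes, with H1f5 at 1357 against 176 CPM, H2ac8 at 522 against 75.6, H3c3 at 432 against 62.5 and H1f1 at 206 against 24.9. These ratios depended on the gate: in the 13 cells above 0.5%, H1f5 (log2 ratio -0.27) and H1f1 (-0.23) were lower than in the other keratinocytes, and H2ac8 (0.25) and H3c3 (0.40) no longer differed by 2-fold. Histone genes have near-identical copies, so the assignment of their reads to a given copy is uncertain.

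Summed cell cycle genes stood higher in the inner-sheath-led than in the shaft-led cells. Summed S phase genes stood at 2853 CPM in inner-sheath-led, 767 in shaft-led and 1363 in transcription-factor-led cells, beside 1048 CPM in the other keratinocytes. Summed G2/M genes stood at 4278, 2434 and 1652 CPM in the same order, beside 1530. Mki67 had a median of 14.4 UMIs per 10000 in inner-sheath-led cells (0 to 59.5) and of 2.62 in shaft-led cells (0 to 24.8), with overlapping ranges. Both Tchh-rich cells had 0 Mki67 UMIs. Clustering of the 64 cells gave 2 sub-clusters. The larger, of 38 cells of which 36 were inner-sheath-led, was led by H2ac4, H2ac8, ENSMUSG00000121069, H2ac24 and Gm20186, and 0 of its top 10 genes were fixed markers of a follicle layer. The smaller, of 26 cells (10 inner-sheath-led, 10 shaft-led, 5 transcription-factor-led and 1 tied), was led by Tchh, S100a3, Krt35, Gm49425 and Selenbp1. Both were left unnamed.

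Of 32 listed genes of the Wnt, Shh, Bmp and Notch pathways, 25 reached the filter, with 6 at least 2-fold higher and 5 at least 2-fold lower. Of these, 4 of the higher and 1 of the lower genes passed through the side where they were high alone. Over all genes that reached 10 CPM on both sides, 4.30% were higher and 5.58% lower. Of the 20 listed genes that did so, 2 were higher and 4 lower (median 0.25). Notch1, a receptor that guides sheath differentiation, was the most abundant at 628 against 241 CPM, followed by Ctnnb1 (494 against 435 CPM). Among ligands, Wnt10b (57.0 against 4.57 CPM) and Wnt5a (133 against 33.2) were at least 2-fold higher. All 5 genes that were at least 2-fold lower are ligands: Wnt3 (5.93 against 32.8 CPM), Wnt10a (20.2 against 65.2), Bmp2 (24.9 against 74.3) and the Notch ligands Jag2 (39.2 against 116) and Dll1 (10.7 against 38.2). Wnt10b stood at 165 CPM in shaft-led and 13.1 CPM in inner-sheath-led cells. Shh, the growth signal of the matrix, had 16 UMIs over 7 cells (19.0 against 0.415 CPM) and missed the filter. The summed level of the 32 genes was 5287 CPM in shaft-led and 2345 CPM in inner-sheath-led cells.

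The remaining genes among the 20 highest had other roles. Fabp5, a fatty acid carrier of keratinocytes, had the highest level of them at 2155 CPM (2057 to 2256) against 262, and 61 of 64 cells held it. Hopx, a homeodomain-only protein found in follicle cells, stood at 653 against 111 CPM. The semaphorin co-receptor Nrp2 (267 against 12.9 CPM, in 50 cells), the tight junction gene Cldn10 (135 against 2.08 CPM, in 41 cells) and Nhs (160 against 9.97 CPM, in 45 cells) were found in most gated cells. The transcription factor Bach2 (161 against 12.2 CPM), the protocadherin Pcdh19 (101 against 6.85) and Paqr5, a membrane progestin receptor (113 against 9.97), completed the group. Of 12 sebaceous genes, 6 reached the filter. Mgst1 and the fatty acid synthase Fasn were at least 2-fold higher and 2 were lower, both of which passed through the other keratinocytes alone, and Elovl3, Awat1 and Awat2, which mark mature sebocytes, had 0 UMIs. The shares over all genes that reached the filter were 5.13% higher and 10.6% lower.

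Genes of the outer root sheath, bulge and epidermis were low. Krt14 had 23 UMIs over 14 gated cells, 27.3 CPM (17.3 to 40.9) against 6295 in the other keratinocytes, which were chosen by Krt5 and Krt14. Krt5 was at 174 against 4919 CPM. Of 15 outer sheath and bulge genes, all reached the filter, 6 of them through the other keratinocytes alone, and 14 were at least 2-fold lower and 0 higher. Of the 9 that reached 10 CPM on both sides, 8 were lower (median log2 ratio -3.92). Over all genes, 5.58% of those on both sides and 10.6% of those that reached the filter were lower. Because the comparison cells were chosen by Krt5 and Krt14, the direction for those genes was fixed by the rule. The counts are therefore a description and were not tested. Krt15, a bulge keratin, stood at 8.31 against 2461 CPM. Lhx2, a homeodomain factor of follicle progenitors, was the exception at 183 against 132 CPM, in 50 of 64 cells. Barx2 had 0 UMIs against 335 CPM and was at least 94.1-fold lower, with 3 counts over the class as the floor. On the same floor Stfa3 was at least 115-fold, Fcgbp at least 99.7-fold and Defb6 at least 84.8-fold lower. The epidermal genes Krt1 (3.56 against 575 CPM) and Krt10 (59.3 against 1081), the annexin Anxa8 (3.56 against 568), the skin chemokine Ccl27a (1.19 against 384) and Clca3a2 (1.19 against 337) were also far lower. Of 13 interfollicular differentiation genes, 9 reached the filter, 2 of them through the other keratinocytes alone, and 6 were at least 2-fold lower, these 2 included, with Lgals7 still the most abundant at 2250 against 5461 CPM. Of the companion layer, the layer next to the inner sheath, 3 of 6 genes reached the filter, 1 of them through the other keratinocytes alone, and all 3 were lower, and Krt75 had 8 UMIs in 4 cells.

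**Figure D5:**
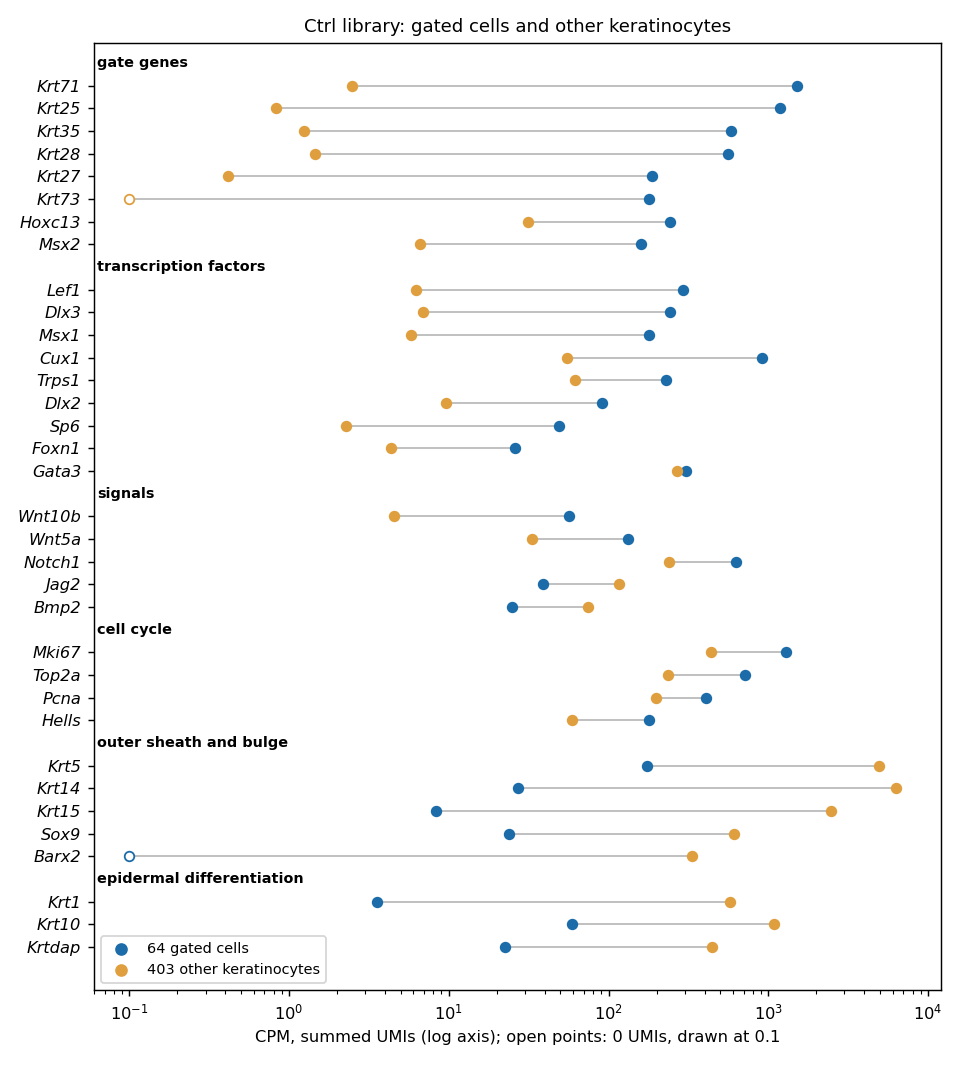
Level in CPM of UMIs summed over cells (horizontal axis, log scale) of genes by group in the 64 gated cells and the 403 other keratinocytes of the Ctrl library, with open points for 0 UMIs. Lef1 (291 against 6.23 CPM) and Mki67 (1296 against 435 CPM) stood higher in the gated cells, and Krt14 (27.3 against 6295 CPM) lower. The other keratinocytes were chosen by Krt5 and Krt14.

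Markers of other cell types were measured beside these results. The 9 fibroblast markers summed to 661 CPM in gated cells and 1879 CPM in the other keratinocytes. Dcn was the most abundant at 282 CPM, with a highest count of 33 in a cell. Col1a1 was found in 43 of 64 cells at a highest count of 4, and Pdgfra was 0 by the gate. Of the 8 fibroblast markers that reached the filter, 1 was at least 2-fold higher and 6 lower, 1 of them through the other keratinocytes alone. All 9 summed to 674 CPM in inner-sheath-led, 482 in shaft-led and 1043 in transcription-factor-led cells. Immune markers summed to 40.3 against 129 CPM, with Cd3e and Csf1r at 0. Endothelial and mural markers summed to 11.9 against 50.5 CPM, with Cdh5, Kdr and Cldn5 at 0. Dermal papilla markers summed to 35.6 against 72.3 CPM, with Rspo2, Rspo3, Sox2 and Fgf10 at 0. Of the melanocyte genes, Dct had 27 UMIs over 19 cells, with a highest count of 3, and Tyr was at 0. Erythroid and muscle markers summed to 35.6 against 32.8 CPM. Stress genes, which dissociation induces, summed to 8485 against 22390 CPM, and 10 of 14 were at least 2-fold lower. Beside these counts, 5.13% of all genes that reached the filter were higher and 10.6% lower. The part of free RNA and of dissociation in the gene ratios was not tested.

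The AD library held 1 cell that passed the same gate, of 8179 kept cells (0.0122%, 0.000310 to 0.0681). Measured against keratinocytes alone, the gate found 64 cells beside 403 other keratinocytes in Ctrl (13.7% of both, 10.7 to 17.2) and 1 beside 116 in AD (0.855%, 0.0216 to 4.67). Kept cells had a median of 7813 UMIs in Ctrl and 6330 in AD. From 0.1% to 0.2% there were 145 cells in Ctrl and 2 in AD. The AD cell had 13756 UMIs, of which 31 were gate UMIs (0.225%). Its calls rested on Msx2 (19 UMIs), Hoxc13 (11) and Krt28 (1), and it held 0 UMIs of Krt25, Krt71 and Krt35. It also held 10 UMIs of S100a3, 5 of Dlx3, 5 of Msx1, 4 of Gm49425, 7 of Cux1 and 1 of Mki67.

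Over all kept cells of each library, the sheath keratins were present in Ctrl and close to nothing in AD. Krt25 had 2674 UMIs in Ctrl (25.4 CPM) and 0 in AD, at least 522-fold higher in Ctrl with 3 counts over the AD library as the floor. Krt35 had 898 UMIs against 0 (at least 175-fold) and Krt73 198 against 0 (at least 38.7-fold). Krt28 had 3468 UMIs against 14 (145-fold, 86.4 to 266), Krt71 1730 against 10 (101-fold, 55.0 to 212) and Krt27 998 against 4 (146-fold, 56.9 to 538). Gm49425 had 829 UMIs against 6 (81.0-fold, 37.0 to 221). The transcription factors of the gate differed less, with 1976 against 132 UMIs for Msx2 (8.77-fold, 7.35 to 10.5) and 1949 against 157 for Hoxc13 (7.27-fold, 6.18 to 8.61). Lef1 stood at 55.9 against 18.1 CPM (3.09-fold, 2.89 to 3.29), and Tchh at 14.8 against 13.8 CPM (1.07-fold, 0.986 to 1.17). In such library sums, fewer cells of a type and less RNA per cell cannot be told apart. With 1 library per condition, the treatment and the library, including how many follicles a piece of skin gave to the suspension, cannot be told apart either.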

How the data were processed

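Single-cell suspensions of dorsal skin were made into 10x Genomics 3′ libraries by the authors, 1 each for Ctrl and AD. The deposited matrices hold UMI counts per gene and barcode. Per the labels these came from Cell Ranger 3.1.0 on mm10 with Seurat 5.0, the matrix headers name Cell Ranger 5.0.0 and the study's methods name other versions of both tools, and the versions were not settled here. All 33904 genes were used as counted, with no correction for free RNA.

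The limits of 200 to 6000 genes and 10% mitochondrial UMIs follow the study, and the gate was applied as described. Levels (CPM) are the pooled UMIs of a class scaled to its total. Log2 ratios used 10 CPM added to both levels, for genes with a mean of at least 10 CPM, and a gene at a 2-fold ratio or more was counted as higher or lower. With 1 library per condition no p-value was computed. Calculations used Python 3.11.15, scipy 1.17.1 and scanpy 1.11.5 (2000 variable genes, 20 components, 15 neighbours, Leiden resolution 0.5). On simulated counts of 3324 genes with 200 changed, 197 ratios came within 0.5 log2 of the truth and 95.3% of intervals held it. Scrublet called 0 AD cells, so doublets were not treated there.

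The named genes were the gate genes, the 20 highest and 10 lowest ratios and the 10 most in excess in each class (mean of at least 50 CPM), the 5 leading genes of each sub-cluster and the 2 to 4 most abundant of each list. Further list members were named after their values were seen. A few listed genes are not reported here. The cells and lists were chosen with earlier results of these data known. Alternatives changed the gate, the cell filter, the comparison cells, the added CPM, the filter and the summing.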

Additional observations from a re-analysis of the deposited data

Results flagged for a closer look

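The filter of at most 6000 genes left out 4 Ctrl barcodes that passed the gate on every other count. They held 34716 to 53844 UMIs and 6369 to 7522 genes, gate shares of 0.271% to 0.782% and 0 UMIs of Krt35, and all 4 were inner-sheath-led. They carried 56 to 210 UMIs of Krt71 and 28 to 101 of Mki67. Such barcodes lie outside the cells compared above, and whether they were doublets was not tested.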

How the results depend on the processing

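The number of gated cells followed the threshold. It was 209 in Ctrl at 0.1% and 13 at 0.5%, and in AD 3 and 0 cells. Requiring 5 gate UMIs, using all barcodes, dropping the lineage requirement or leaving out called doublets gave 59 to 71 Ctrl cells and 1 AD cell. Genes at least 2-fold higher numbered 740 at the 0.5% gate, 780 with 1 CPM added, 57 with 100 CPM added and 233 with a mean of at least 50 CPM. Genes at least 2-fold lower numbered 149 with 100 CPM added and 320 with a mean of at least 50 CPM. The share of cells with Mki67 or Top2a was 66.7% after thinning to 1000 UMIs. Of 532 ratios for 38 named genes, 406 stayed within the counting interval of the reported ratio, 123 moved beyond it and 3 changed direction: H1f5 (-0.27) and H1f1 (-0.23) at the 0.5% gate, and Tchh (-0.48) without the 2 cells of highest gate share, an alternative chosen after seeing the data that also lowered Krt27 (to 3.31) and Krt73 (to 3.56). Of the 123, 119 were still past 2-fold and 4 were not: H2ac8 (0.25) and H3c3 (0.40) at the 0.5% gate, and Pcdh19 (0.91) and Paqr5 (0.95) with 100 CPM added. Dropping the filter or raising it to a mean of 50 CPM changes only which genes are counted. Neither can move a ratio, so their ratios are among the 406 without having tested stability. The cause was not tested for the histone genes, and the 13 cells of the 0.5% gate are few. The median ratio of all genes lay between -0.03 (no filter) and 0.16 (mean of at least 50 CPM). Resolution 0.3 gave 2 sub-clusters and resolution 1.0 gave 5. No paired analysis was possible because each condition has 1 library. Depth limits calls in cells with few UMIs, where 2 gate UMIs can pass the threshold.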
